A study of Mus musculus with 9 samples.

Results

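The matrix metalloproteinases (Mmp), the ADAMTS proteases (Adamts) and the tissue inhibitors of metalloproteinases (Timp) were examined in RNA of mouse ovary. Genes were taken by symbol: Mmp with a number, with or without a letter, Adamts with a number, and Timp1 to Timp4, leaving out the Adamtsl genes. This gave 46 genes, 23 Mmp, 19 Adamts and 4 Timp, of 22544 genes and assembled loci in the table. Polyadenylated RNA was sequenced in 9 libraries, 3 in each of 3 groups. The HBOT libraries came from ovaries that, per the design text of the series, received CTX together with hyperbaric oxygen (HBOT), that is, oxygen breathed above atmospheric pressure. The CTX libraries came from ovaries given CTX, commonly short for cyclophosphamide, a DNA-alkylating drug. The NC libraries were the controls, and their labels name neither agent. The labels used here give no strain, age, dose or timing. Nor do they say that the 3 replicates of a group were different animals, so a p-value speaks of the spread among these libraries, which may be technical.

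Matrix metalloproteinases are zinc-dependent enzymes, most of them secreted as inactive precursors, that cut collagens, elastin and other proteins outside the cell. ADAMTS proteases are secreted relatives with thrombospondin repeats, several of which cut versican, aggrecan or procollagens. TIMPs bind the active site of metalloproteinases and block it. In the ovary these families remodel matrix while follicles grow, when the follicle wall opens at ovulation and when corpora lutea form and regress.

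Values are FPKM, which divides by transcript length, so levels of different genes can be set side by side. Their sum over all genes ranged from 394046 to 420058 per library, and read depth is unknown. HBOT replicate 2 stood apart: its best rank correlation with any other library was 0.907, against at least 0.977 for each of the other 8. In bulk tissue, fewer cells of a type and less RNA per cell cannot be told apart. All 10 granulosa markers and all 10 oocyte markers were measured, with summed levels of 1882 to 2371 and 302 to 344 FPKM in HBOT, 1585 to 2596 and 210.01 to 316 FPKM in CTX, and 1459 to 2142 and 135 to 189 FPKM in NC, so the defining cells of the labelled tissue were present. Of 10 oviduct markers 5 were tested, and the 10 summed to 60.7 to 70.5 FPKM in HBOT, 52.8 to 81.5 FPKM in CTX and 52.0 to 62.9 FPKM in NC, with the ciliated-cell gene Foxj1 and 3 others under 1 FPKM in all 9 libraries. A list of 10 ovulation genes, with Pgr, Ereg and Ptgs2 among them, summed to 1085 FPKM in HBOT replicate 2 and to between 12.2 and 22.5 FPKM in the other 8 libraries. Adipocyte markers summed to 117.6 FPKM in CTX replicate 1 and to at most 23.9 FPKM elsewhere.

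Of the 46 genes, 25 reached 1 FPKM in at least 3 of the 9 libraries and were tested: 10 of 23 Mmp, 11 of 19 Adamts and all 4 Timp. Of the other 21 genes, 19 stayed under 1 FPKM in every library and 2 of these, Mmp1a and Mmp1b, were listed at 0 throughout. Timp1 had the highest mean over 9 libraries, 128 FPKM, with a range of 28.1 to 227 FPKM. Timp2 (68.6), Mmp11 (61.6), Adamts10 (60.8), Mmp14 (56.8), Mmp2 (52.7), Timp3 (51.6) and Mmp23 (48.4 FPKM) followed. The ranges of each of these neighbours in the order overlapped. Adamts2 (31.0), Adamts9 (23.3), Adamts19 (13.1) and Adamts1 (13.0 FPKM) formed the next level, and the other 12 genes down to Mmp17 (1.15 FPKM) averaged under 10 FPKM. Timp4 averaged 0.775 FPKM and passed only through its 3 NC libraries and CTX replicate 2.

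**Figure D1:**
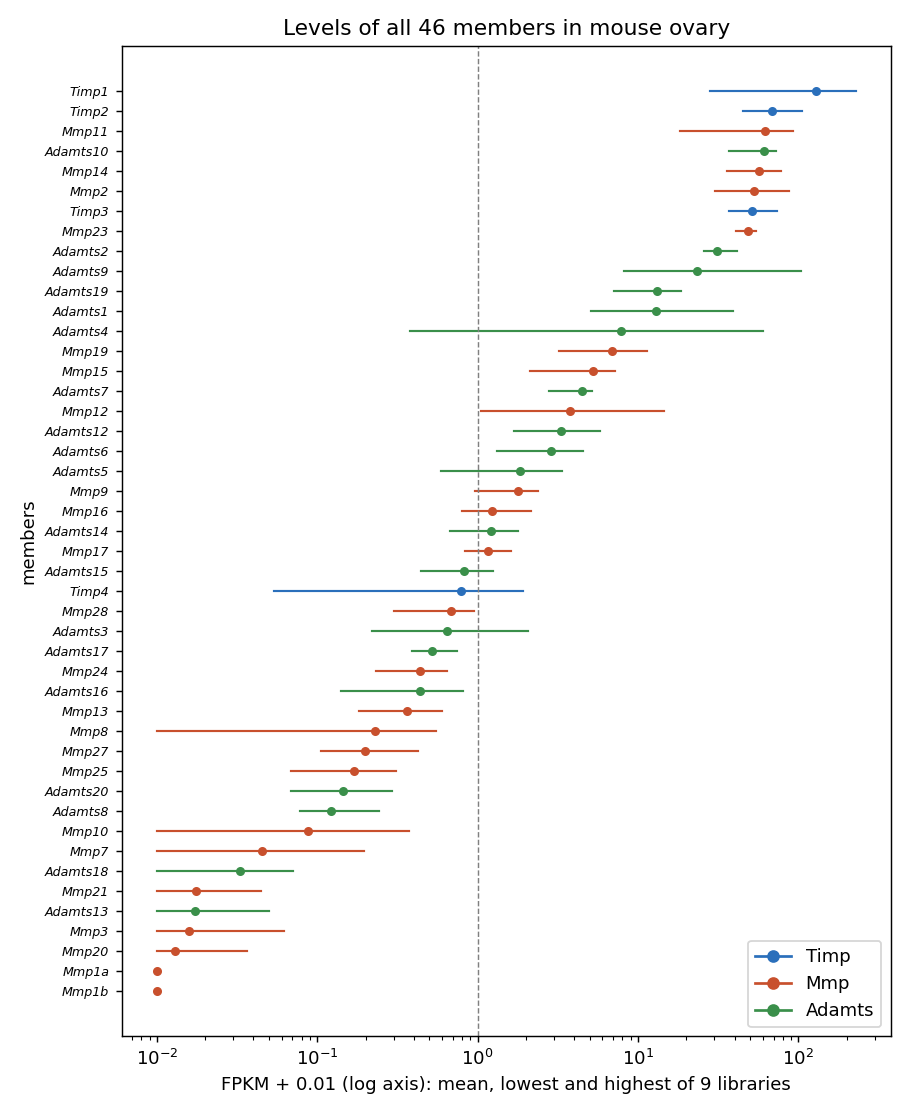
Mean (point), lowest and highest (ends of the line) FPKM of each of the 46 genes over the 9 libraries, on a log axis of FPKM + 0.01, coloured by family, with a dashed line at 1 on that axis. Timp1 heads the order with a mean of 128 FPKM, Adamts4 has the longest line among the genes above 1 FPKM (0.370 to 60.2 FPKM), and Mmp1a and Mmp1b are listed at 0.

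The genes that were hardly detected include many of the secreted Mmps. The collagenases Mmp1a, Mmp1b, Mmp8 and Mmp13, the stromelysins Mmp3 and Mmp10, the matrilysin Mmp7 and the enamel protease Mmp20 each stayed under 0.6 FPKM in all libraries. Mmp8, a neutrophil collagenase, was at 0.454, 0.537 and 0.117 FPKM in HBOT replicates 1 to 3, at 0, 0.195 and 0.439 FPKM in CTX and at 0, 0.182 and 0.0406 FPKM in NC. Adamts13, which cuts von Willebrand factor, had at most 0.0398 FPKM. Adamts3, a procollagen protease, reached 2.04 FPKM in HBOT replicate 2 and at most 0.665 FPKM in the other 8 libraries, so it did not pass. Adamts15 ranged from 0.435 to 1.24 FPKM and did not pass either. On chromosome 9 a run of 9 Mmp genes stands side by side in the annotation (Mmp13, Mmp12, Mmp1b, Mmp3, Mmp10, Mmp8, Mmp27, Mmp20 and Mmp7), and Mmp12 alone of them passed.

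Promoters from RefSeq (GRCm38.p6, 250 bases before to 50 after a start) were given for 32 of the 46 genes, in 35 windows, and for 14 of the 25 tested genes. Motifs were searched as letters on both strands: the AP-1 element TGANTCA, the GC box GGGCGG and the TATA box TATAAA. The AP-1 element was in 8 of the 35 windows (22.9%), against 7.81% of all 32851 RefSeq windows. Its 8 genes were Mmp12, which was tested, and Mmp1a, Mmp1b, Mmp3, Mmp7, Mmp10, Mmp13 and Mmp20, which were below the filter. The GC box was in 18 windows (51.4%, against 35.7% of all), of 11 of the 14 tested genes and 7 of the 18 genes below the filter. The TATA box was in 11 windows (31.4%, against 13.6% of all), of 2 tested genes, Adamts1 and Mmp12, and 9 genes below the filter. Genes that neighbour each other on chromosome 9 share descent, so these windows are not independent, and a match is only a run of letters. Shown are the 150 bases before the start of Timp1 and Mmp14, whose libraries separated CTX from both other groups, of Adamts1, which has 2 of the motifs, and of Mmp12 at the one of its 2 starts that has the AP-1 letters. Capitals mark motif matches. The files use GRCm39, so the coordinates are those of the RefSeq table: chrX:20870016-20870165 on the + strand for Timp1, chr14:54431448-54431597 on the + strand for Mmp14, chr16:85803114-85803263 on the - strand for Adamts1 and chr9:7347224-7347373 on the + strand for Mmp12.
Timp1: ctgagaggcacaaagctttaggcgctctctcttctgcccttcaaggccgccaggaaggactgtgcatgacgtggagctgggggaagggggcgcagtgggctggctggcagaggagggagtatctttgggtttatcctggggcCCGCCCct
Mmp14: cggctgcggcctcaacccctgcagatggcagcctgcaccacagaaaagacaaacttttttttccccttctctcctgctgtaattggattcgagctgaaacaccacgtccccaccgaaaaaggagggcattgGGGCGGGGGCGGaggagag
Adamts1: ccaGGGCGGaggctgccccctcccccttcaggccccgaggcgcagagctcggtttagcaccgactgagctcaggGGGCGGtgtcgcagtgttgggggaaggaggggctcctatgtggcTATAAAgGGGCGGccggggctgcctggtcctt
Mmp12: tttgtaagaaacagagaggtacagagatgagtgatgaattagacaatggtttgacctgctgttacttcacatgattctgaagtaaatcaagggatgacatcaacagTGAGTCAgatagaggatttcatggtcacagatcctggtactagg
Reading 5′ to 3′ towards the start, Timp1 has a GC box beginning 8 bases before it and Mmp14 has a pair at 19 and 13 bases. Adamts1 has GC boxes at 147, 76 and 25 bases and a TATA box at 32 bases. The Mmp12 window has an AP-1 element at 44 bases and holds no GC box.

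Among the inhibitors, Timp1 set the CTX libraries apart from all others. Timp1 (ENSMUSG00000001131), a secreted inhibitor of most MMPs, was at 193, 158 and 208 FPKM in HBOT replicates 1, 2 and 3, at 28.1, 45.0 and 69.8 FPKM in CTX and at 125, 102 and 227 FPKM in NC. All 3 CTX libraries lay below all 6 others, and the HBOT values fell inside the NC range. Fold changes here are differences of log2(FPKM + 1), which understate those of low genes, and the 3 comparisons share libraries, so they are not independent. On that scale Timp1 differed by 2.03 between HBOT and CTX (SE 0.36, unadjusted p = 0.000365, adjusted p = 0.579 by limma with Benjamini-Hochberg adjustment over 13338 genes). Between CTX and NC the difference was -1.65 (SE 0.36, unadjusted p = 0.00142, adjusted p = 0.301 by limma), and between HBOT and NC it was 0.37 (SE 0.36, adjusted p = 0.667 by limma). By p, Timp1 ranked 8 of 13338 genes for HBOT against CTX and 61 for CTX against NC, yet it passed in neither. Without HBOT replicate 2 the HBOT against CTX difference was 2.14 (adjusted p = 0.473 by limma). Timp1 lies inside Syn1 on the opposite strand, and whether strand was used in counting is not given. Syn1 had 0.539 to 2.52 FPKM.

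Timp2 (ENSMUSG00000017466), which together with Mmp14 takes part in the activation of pro-Mmp2, was at 83.2, 45.0 and 80.8 FPKM in HBOT, at 64.7, 52.6 and 45.6 FPKM in CTX and at 70.4, 68.9 and 106 FPKM in NC. The CTX libraries lay below the NC libraries, and HBOT replicate 2 was the lowest of all 9. Timp2 differed by -0.57 between CTX and NC (SE 0.27, adjusted p = 0.662 by limma) and by 0.32 between HBOT and CTX (SE 0.27, unadjusted p = 0.265 by limma), or 0.60 without HBOT replicate 2 (unadjusted p = 0.0207 by limma). Timp3 (ENSMUSG00000020044), which binds to the matrix and also inhibits ADAM and ADAMTS enzymes, was at 47.6, 73.1 and 39.2 FPKM in HBOT, at 37.2, 51.4 and 52.5 FPKM in CTX and at 54.9, 61.2 and 47.6 FPKM in NC. The 3 groups overlapped, with the highest value in HBOT replicate 2. The Timp3 difference between HBOT and CTX was 0.14 (SE 0.23), and -0.10 without HBOT replicate 2.

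Timp4 (ENSMUSG00000030317), the least abundant of the 4 inhibitors, was at 0.145, 0.0435 and 0.368 FPKM in HBOT, at 0.131, 1.18 and 0.234 FPKM in CTX and at 1.90, 1.42 and 1.56 FPKM in NC. Every HBOT and CTX library lay below every NC library, with CTX replicate 2 nearest to them. The difference was -1.15 between HBOT and NC (SE 0.25, unadjusted p = 0.00156, adjusted p = 0.245 by limma) and -0.85 between CTX and NC (SE 0.25, adjusted p = 0.424 by limma). With 0.1 in place of 1 added to the FPKM these were -2.75 and -1.89. Timp4 lies inside Syn2 on the opposite strand, which had 0.401 to 0.959 FPKM, about the level of Timp4 itself. Timp3 lies in the same way inside Syn3, which had at most 0.727 FPKM.

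**Figure D2:**
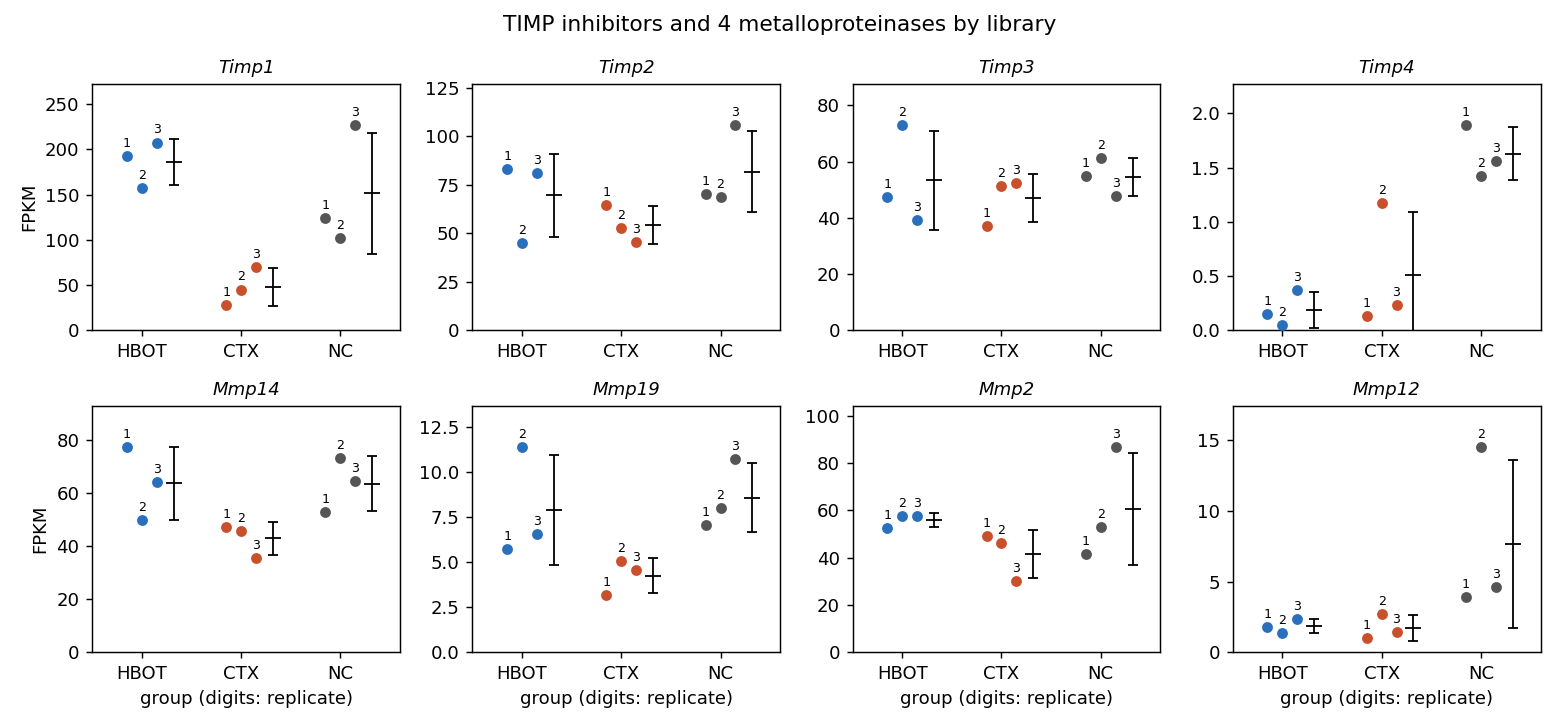
FPKM of the 4 Timp genes and of Mmp14, Mmp19, Mmp2 and Mmp12 by library, 1 panel a gene, with HBOT left of CTX and NC, the replicate number above each point and bars of mean ± SD (n = 3, cut off at 0 for Timp4 in CTX). In the Timp1 panel the CTX points, 28.1 to 69.8 FPKM, lie below all others, and in the Mmp12 panel NC replicate 2 stands alone at 14.5 FPKM.

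The inhibitors can be set beside the enzymes by summing FPKM within a family. The 4 Timp genes summed to 324, 276 and 328 FPKM in HBOT, to 130.1, 150.2 and 168 FPKM in CTX and to 252, 234 and 382 FPKM in NC. The 23 Mmp genes summed to 291, 188 and 256 FPKM in HBOT, to 204, 236 and 179.8 FPKM in CTX and to 222, 279 and 320.1 FPKM in NC. The Timp over Mmp ratio of these sums was 1.11, 1.47 and 1.28 in HBOT, 0.638, 0.637 and 0.935 in CTX and 1.13, 0.837 and 1.19 in NC. HBOT and CTX did not overlap in this ratio, while CTX replicate 3 lay above NC replicate 2. Timp1 made up 57.2% to 63.3% of the Timp sum in HBOT, 21.6% to 41.5% in CTX and 43.7% to 59.45% in NC. These sums describe 3 libraries a group, for which an exact permutation test cannot go below p = 0.1, and they were not tested.

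**Figure D3:**
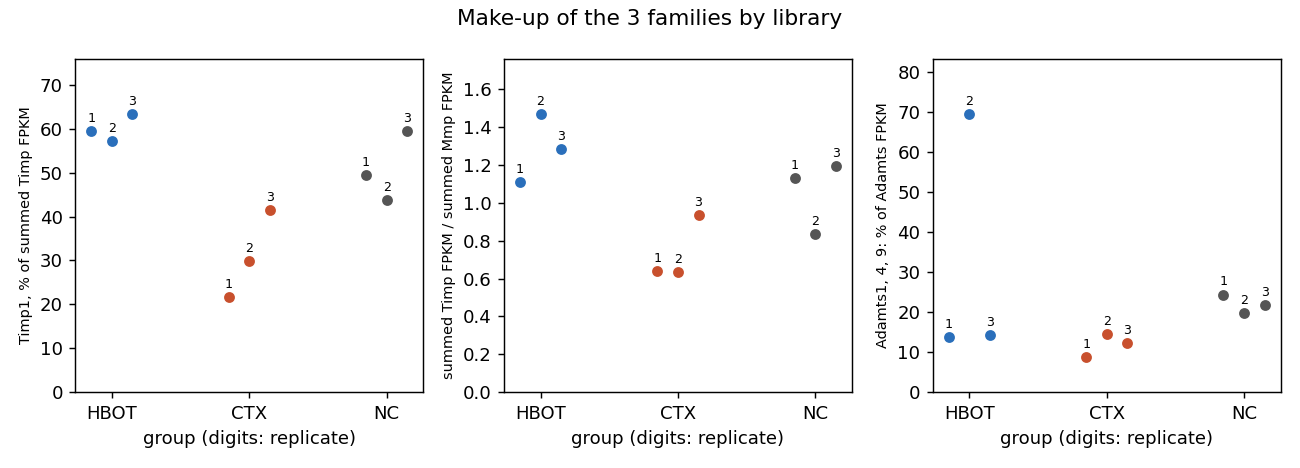
From left to right, the Timp1 percentage of the Timp sum, the ratio of the Timp sum to the Mmp sum, and the percentage of the Adamts sum held by Adamts1, Adamts4 and Adamts9, with 1 point a library, HBOT left of CTX and NC, and the replicate number above each point. Timp1 holds 57.2% to 63.3% of the Timp sum in HBOT and 21.6% to 41.5% in CTX, and HBOT replicate 2 stands alone in the Adamts percentage at 69.4%.

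Of the gelatinases and their membrane-bound activator, Mmp14 separated CTX from both other groups. Mmp14 (ENSMUSG00000000957), a membrane-type protease that cuts collagen and activates pro-Mmp2, was at 77.4, 49.9 and 64.1 FPKM in HBOT, at 47.3, 45.9 and 35.7 FPKM in CTX and at 52.8, 73.4 and 64.7 FPKM in NC. The 3 CTX libraries were the lowest of the 9. Mmp14 differed by 0.55 between HBOT and CTX (SE 0.19, unadjusted p = 0.0192, adjusted p = 0.710 by limma) and by -0.55 between CTX and NC (SE 0.19, unadjusted p = 0.0183, adjusted p = 0.497 by limma). Without HBOT replicate 2 the first of these was 0.71 (unadjusted p = 0.00357 by limma). Mmp2 (ENSMUSG00000031740), gelatinase A, was at 52.4, 57.8 and 57.5 FPKM in HBOT, at 49.0, 46.1 and 30.1 FPKM in CTX and at 41.5, 53.1 and 87.0 FPKM in NC. Its HBOT libraries lay above its CTX libraries, and its NC libraries overlapped both groups, with CTX replicate 3 the lowest of the 9. The Mmp2 difference was 0.44 between HBOT and CTX (SE 0.27, unadjusted p = 0.134 by limma), and 0.23 without CTX replicate 3. Mmp9 (ENSMUSG00000017737), gelatinase B, was low, at 2.38, 1.93 and 1.97 FPKM in HBOT, 0.951, 2.35 and 1.80 FPKM in CTX and 1.46, 1.58 and 1.61 FPKM in NC. HBOT lay above NC with no overlap, by 0.28 (SE 0.20, unadjusted p = 0.200 by limma).

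Mmp19 (ENSMUSG00000025355), an MMP expressed in the ovary of the mouse around ovulation, was at 5.71, 11.4 and 6.58 FPKM in HBOT, at 3.19, 5.03 and 4.55 FPKM in CTX and at 7.04, 7.98 and 10.7 FPKM in NC. Again the 3 CTX libraries were the lowest, and the highest was HBOT replicate 2. Mmp19 differed by 0.72 between HBOT and CTX (SE 0.26, unadjusted p = 0.0215, adjusted p = 0.710 by limma), or 0.46 without HBOT replicate 2 (unadjusted p = 0.0570 by limma), and by -0.86 between CTX and NC (SE 0.26, unadjusted p = 0.00901, adjusted p = 0.424 by limma). It overlaps Tmem198b on the opposite strand, a gene at 6.07 to 10.5 FPKM.

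Mmp12 (ENSMUSG00000049723), macrophage elastase, was at 1.81, 1.35 and 2.35 FPKM in HBOT, at 1.04, 2.73 and 1.40 FPKM in CTX and at 3.88, 14.5 and 4.63 FPKM in NC. All 6 HBOT and CTX libraries lay below the 3 NC libraries. The difference was -1.52 between CTX and NC (SE 0.42, unadjusted p = 0.00635, adjusted p = 0.386 by limma) and -1.42 between HBOT and NC (SE 0.42, adjusted p = 0.325 by limma). Without NC replicate 2 the CTX against NC difference was -0.99 (unadjusted p = 0.00850 by limma). The 10 general macrophage markers, all of them tested, summed to 238 to 446 FPKM in HBOT, 220.4 to 344 FPKM in CTX and 166 to 237 FPKM in NC, and the NC library with the most Mmp12, replicate 2, had the highest sum of the NC group. Of the 10 neutrophil markers 4 were tested, and the 10 summed to 13.8 to 41.3 FPKM in HBOT, 8.71 to 45.4 FPKM in CTX and 2.25 to 3.68 FPKM in NC, with Mpo and Elane under 1 FPKM in every library. Luteal markers, 10 of 10 tested, summed to 5153 to 9563 FPKM in HBOT, 4325 to 9854 FPKM in CTX and 8936 to 12369 FPKM in NC. The 10 stroma and smooth muscle markers, all tested, summed to 713 to 855 FPKM in HBOT, 578 to 668 FPKM in CTX and 629.8 to 757 FPKM in NC. The part of these cell types in the differences of Mmp12, Timp1, Mmp14, Mmp19 or Timp4 was not tested.

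Mmp11 and Mmp23 were abundant and did not set CTX apart. Mmp11 (ENSMUSG00000000901), a stromelysin activated inside the cell by furin, was at 92.1, 18.2 and 67.3 FPKM in HBOT, at 47.2, 72.6 and 42.8 FPKM in CTX and at 55.8, 69.8 and 88.3 FPKM in NC. HBOT held both the highest and the lowest of the 9, the lowest being replicate 2. The Mmp11 difference between HBOT and CTX was -0.12 (SE 0.52), and 0.57 without HBOT replicate 2 (unadjusted p = 0.0671 by limma). Mmp11 overlaps Chchd10 on the opposite strand, a gene at 58.8 to 111 FPKM. Mmp23 (ENSMUSG00000029061), anchored in the membrane near its amino end, was at 46.3, 40.8 and 47.3 FPKM in HBOT, at 45.5, 50.4 and 52.8 FPKM in CTX and at 50.1, 48.0 and 54.7 FPKM in NC. The range of all 9 libraries was narrow, and HBOT lay below NC with no overlap, by -0.18 (SE 0.10, unadjusted p = 0.116 by limma). Apart from Mmp14, the other tested membrane-type enzymes were lower, each with overlapping groups. Over the 9 libraries Mmp15 was at 2.10 to 7.16, Mmp16 at 0.788 to 2.13 and Mmp17 at 0.821 to 1.60 FPKM. Mmp24 and Mmp25, of the same type, reached at most 0.639 and 0.298 FPKM and were not tested.

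Adamts4, Adamts9 and Adamts1, which cut versican or aggrecan, had their highest values in HBOT replicate 2, while Adamts5, another aggrecan protease, had its lowest there (0.585 FPKM). Adamts4 (ENSMUSG00000006403) was at 1.85, 60.2 and 1.31 FPKM in HBOT, at 0.865, 1.09 and 0.370 FPKM in CTX and at 1.56, 1.62 and 1.24 FPKM in NC. Replicate 2 held 32.6 times the next highest library. Among the tested genes at 2 FPKM or more in that library, only 3 had a larger such ratio. Genes that were under 1 FPKM in the other 8 libraries did not pass the filter and were not ranked. One of them was Ereg, at 361 FPKM there and at most 0.964 FPKM in the other 8 libraries. Adamts9 (ENSMUSG00000030022) was at 10.7, 104 and 14.0 FPKM in HBOT, at 8.17, 12.5 and 9.62 FPKM in CTX and at 22.6, 15.3 and 13.5 FPKM in NC. Replicate 2 was here 4.59 times the next highest library. Adamts1 (ENSMUSG00000022893), which the progesterone receptor induces before ovulation in the mouse, was at 9.24, 39.0 and 6.38 FPKM in HBOT, at 5.07, 8.25 and 5.36 FPKM in CTX and at 11.4, 9.59 and 22.3 FPKM in NC. HBOT replicate 2 was again the highest, at 1.75 times NC replicate 3. For Adamts1, Adamts4 and Adamts9 the 3 CTX libraries lay below the 3 NC libraries, though for none of them was the unadjusted p under 0.05.

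The size of the HBOT differences of Adamts1, Adamts4 and Adamts9 rested on HBOT replicate 2. The difference between HBOT and CTX was 2.08 for Adamts4 (SE 1.05, unadjusted p = 0.0803, adjusted p = 0.710 by limma). Without that library it was 0.55 (unadjusted p = 0.0323, adjusted p = 0.918 by limma), still with no overlap between the groups. For Adamts9 the difference was 1.27 (SE 0.71), and 0.28 without that library. For Adamts1 it was 1.03 (SE 0.58), and 0.29 without it. Between HBOT and NC, Adamts9 was at 0.58 (SE 0.71), and at -0.42 without that library. Between CTX and NC the differences were -0.50 for Adamts4 (SE 1.05), -0.69 for Adamts9 (SE 0.71) and -1.03 for Adamts1 (SE 0.58, unadjusted p = 0.110 by limma). Their standard errors take in the spread of HBOT replicate 2, and without it the unadjusted p for CTX against NC was 0.0319 for Adamts4, 0.0126 for Adamts9 and 0.0106 for Adamts1 by limma, with adjusted p of 0.273, 0.20991 and 0.2002.

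The same library was high in other genes of this matrix. Vcan, the substrate versican, was at 18.0, 84.9 and 11.9 FPKM in HBOT, at 13.6, 13.4 and 11.4 FPKM in CTX and at 10.7, 12.5 and 14.8 FPKM in NC. Tnfaip6, which links hyaluronan in the cumulus matrix, was at 1.45, 188 and 1.60 FPKM in HBOT and at most 1.65 FPKM in CTX and NC. Pgr, the progesterone receptor, was at 0.545, 49.1 and 0.254 FPKM in HBOT and at most 0.502 FPKM in CTX and NC. Among activators of matrix proteases, Plau (urokinase) reached 535 FPKM in HBOT replicate 2, against 29.3 to 53.2 FPKM in the other 8 libraries. The proprotein convertase Pcsk5 reached 93.9 FPKM there, against 11.0 to 23.0 FPKM. The labels give no cycle stage, and the part of an ovulatory stage in the values of Adamts1, Adamts4, Adamts9 and Mmp19 was not tested.

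**Figure D4:**
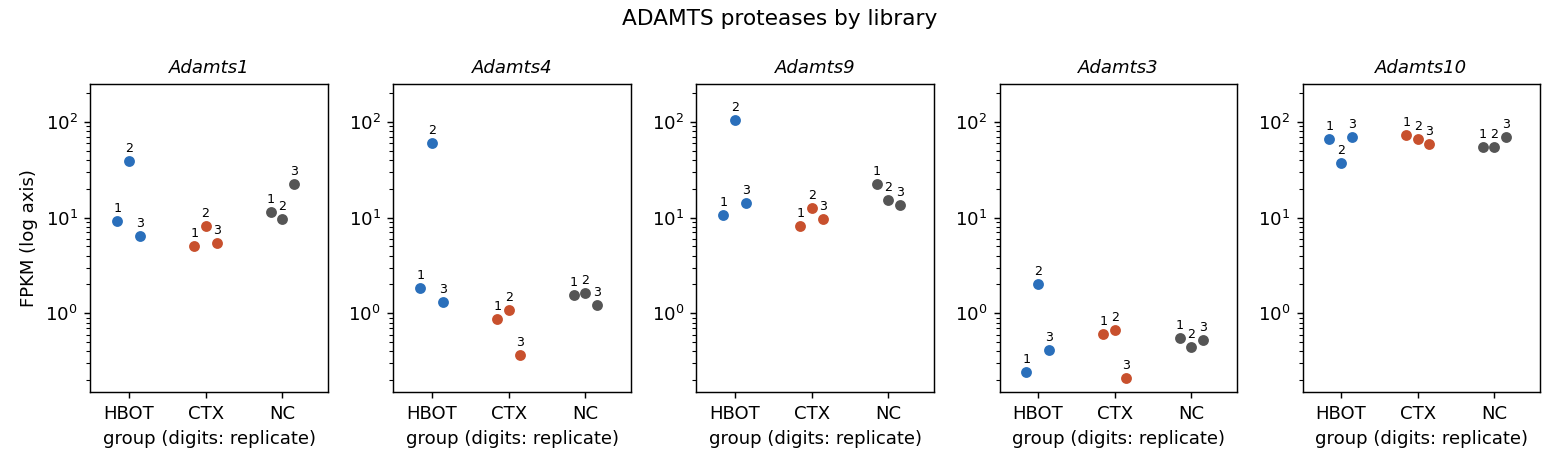
FPKM of Adamts1, Adamts4, Adamts9, Adamts3 and Adamts10 by library on a log axis, 1 panel a gene, with HBOT left of CTX and NC and the replicate number above each point. HBOT replicate 2 is the highest point for Adamts1 (39.0 FPKM), Adamts4 (60.2 FPKM), Adamts9 (104 FPKM) and Adamts3 (2.04 FPKM) and the lowest for Adamts10 (37.2 FPKM).

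HBOT replicate 2 was the highest library for some of these genes and the lowest for others, at shares near those of all tested genes. Of the 25 tested genes it was the highest of 9 libraries for 5 (Adamts1, Adamts4, Adamts9, Mmp19 and Timp3), against 19.5% of all tested genes. It was the lowest for 10, among them Adamts5, Adamts6, Adamts7, Adamts10 and Adamts14, against 44.1% of all. The rule of at least 4 times the next highest library at 2 FPKM or more took 2 genes, Adamts4 and Adamts9, against 0.847% of all. Adamts1, Adamts4 and Adamts9 together made up 69.4% of the Adamts sum in that library. They made up 13.8% and 14.2% in the other HBOT libraries, 8.78% to 14.6% in CTX and 19.9% to 24.4% in NC.

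The other Adamts genes with a mean of at least 10 FPKM, Adamts2, Adamts10 and Adamts19, had overlapping groups in all 3 comparisons. Adamts2 (ENSMUSG00000036545), a procollagen N-proteinase, was at 33.1, 31.0 and 31.8 FPKM in HBOT, at 41.3, 27.1 and 30.1 FPKM in CTX and at 27.3, 25.7 and 31.5 FPKM in NC. The groups overlapped, and the difference between HBOT and CTX was -0.02 (SE 0.16). Adamts10 (ENSMUSG00000024299), linked to fibrillin microfibrils, was at 66.2, 37.2 and 68.9 FPKM in HBOT, at 73.0, 65.7 and 58.7 FPKM in CTX and at 54.5, 54.1 and 68.5 FPKM in NC. HBOT replicate 2 was its lowest library, and the difference between HBOT and CTX was -0.24 (SE 0.23). Adamts19 (ENSMUSG00000053441) was at 16.7, 10.1 and 12.5 FPKM in HBOT, at 15.4, 18.6 and 7.09 FPKM in CTX and at 11.9, 10.1 and 15.1 FPKM in NC. Here CTX held both the highest and the lowest library, and the difference between HBOT and CTX was 0.01 (SE 0.33). Adamts7 and Adamts12, which cut cartilage oligomeric matrix protein, ranged from 2.79 to 5.16 and from 1.68 to 5.79 FPKM. Adamts5, Adamts6 and Adamts14 ranged from 0.585 to 3.33, from 1.32 to 4.54 and from 0.662 to 1.76 FPKM, and each had overlapping groups in all 3 comparisons.

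HBOT was compared with CTX to ask what hyperbaric oxygen added to the drug. At an adjusted p under 0.05, 0 of the 25 genes passed, and 0 (0%) of all 13338 tested genes did (limma). At an unadjusted p under 0.05, 3 of the 25 were higher in HBOT (Timp1, Mmp14 and Mmp19), against 2.41% of all genes, and 0 were lower, against 3.67% of all. With no overlap between the groups, 5 were higher (Timp1, Mmp2, Mmp14, Mmp19 and Adamts4), against 3.76% of all, and 0 were lower, against 6.44%. The 25 log2 fold changes had a median of 0.14, against -0.07 over all tested genes, and 15 lay above 0, against 38.4% of all. Without HBOT replicate 2, 9 genes were higher with no overlap, the additions being Timp2, Adamts5, Adamts7 and Adamts12, and 9.17% of all genes were, while 0 were lower, against 9.57% of all. Without CTX replicate 1, 6 were higher, with Adamts2 added, against 10% of all, and Mmp23 was lower, against 13.9%. Over all genes the unadjusted split was 322 higher and 490 lower. Under median-of-ratios scaling it was 430 higher and 412 lower, with 3 of the 25 higher and 0 lower. With that scaling 17 of the 25 lay above 0, against 49.3% of all genes.

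CTX was compared with NC to ask what the drug did. Again 0 of the 25 genes passed at an adjusted p under 0.05, and 0 (0%) of all 13338 did (limma). At an unadjusted p under 0.05, 5 were lower in CTX (Timp1, Timp4, Mmp12, Mmp14 and Mmp19), against 2.74% of all genes, and 0 were higher, against 5.24% of all. With no overlap, 9 were lower, 3 of each family (Timp1, Timp2, Timp4, Mmp12, Mmp14, Mmp19, Adamts1, Adamts4 and Adamts9), against 7.8% of all, and 0 were higher, against 13.2%. The median log2 fold change was -0.29, against 0.05 over all tested genes, 17 of the 25 lay below 0, against 40.5% of all, and 8 lay above 0, against 59.5%. By family the medians were -0.71 for the 4 Timp, -0.22 for the 10 Mmp and -0.11 for the 11 Adamts genes. Timp4 was tested only because of its level in NC and 1 CTX library, so its place in these counts follows in part from the filter. Without CTX replicate 1 the same 9 genes were lower with no overlap, against 12.4% of all, and Mmp9 was higher, against 17.5%. Over all genes the unadjusted split was 699 higher and 366 lower. It was 522 and 430 under TPM scaling, 525 and 534 under median-of-ratios and 560 and 530 under quantile scaling, with 6, 7 and 7 of the 25 lower and 0 higher. Under median-of-ratios scaling 17 of the 25 lay below 0, against 51.1% of all genes. Under quantile scaling 18 did, against 48.7%.

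HBOT was also compared with NC. At an adjusted p under 0.05, 0 of the 25 genes and 0 (0%) of all 13338 passed (limma). At an unadjusted p under 0.05, 2 were lower in HBOT (Timp4 and Mmp12), against 5.65% of all, and 0 were higher, against 6.22%. Timp4 was under 1 FPKM in all 3 HBOT libraries and was tested through its level in NC, so here too its place follows in part from the filter. With no overlap, 3 were lower (Timp4, Mmp12 and Mmp23), against 9.6% of all, and 1 was higher (Mmp9), against 10.9%. The median log2 fold change was -0.05, against -0.01 over all tested genes, and 15 of 25 lay below 0, against 52.4% of all. Without HBOT replicate 2, 6 were lower with no overlap, against 13.2% of all, and 4 were higher, against 23.6%. Over all genes the unadjusted split was 830 higher and 754 lower, or 680 higher and 928 lower under TPM scaling.

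**Figure D5:**
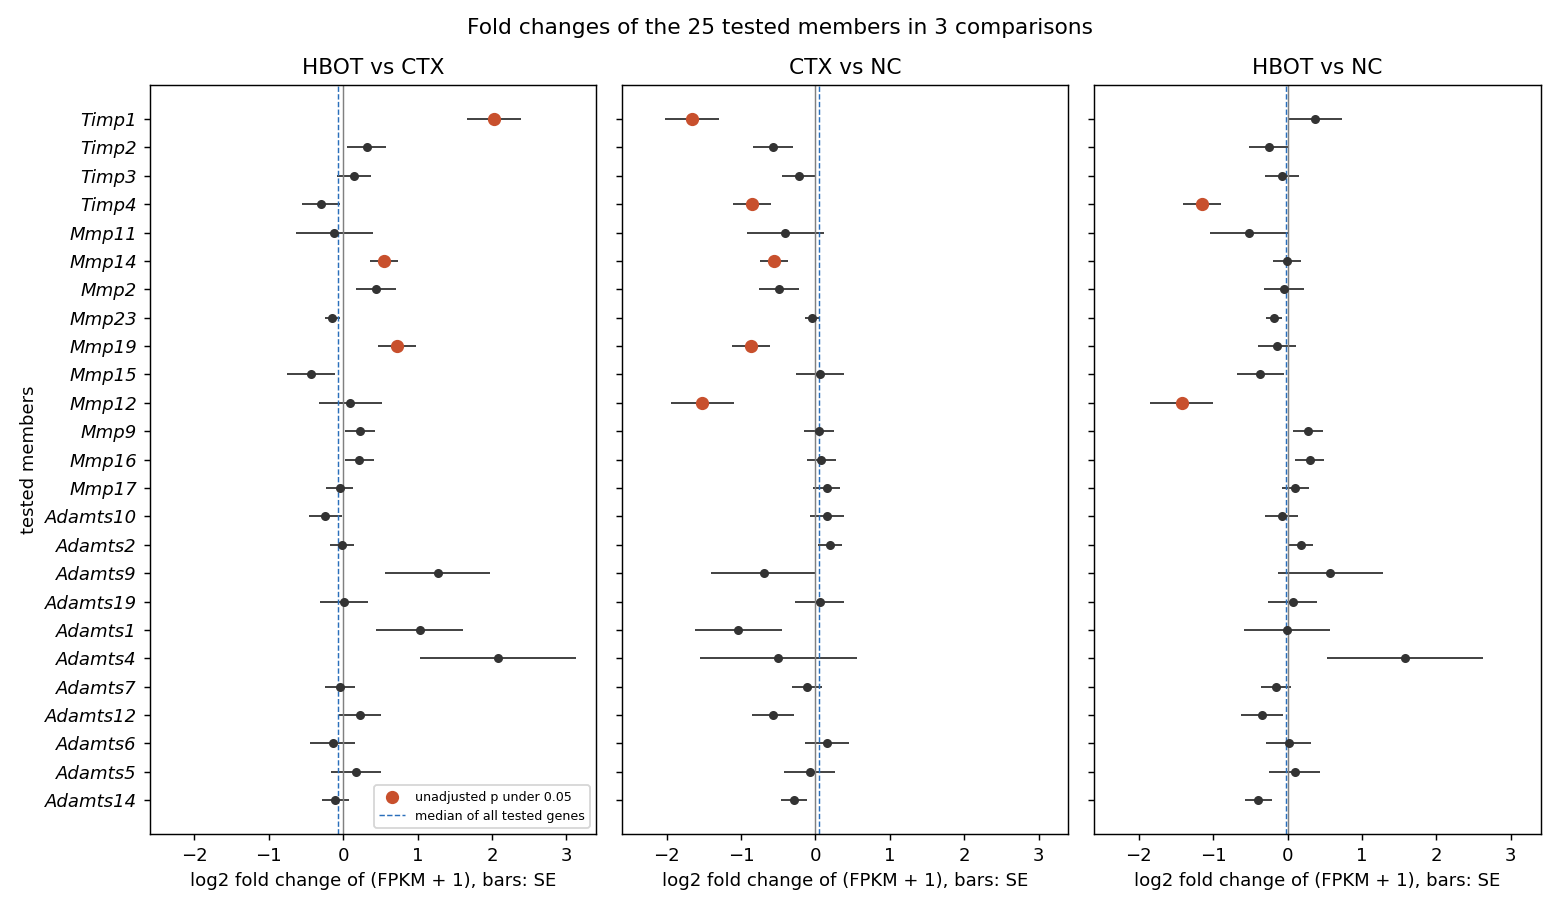
Log2 fold change of each of the 25 tested genes with its standard error, in panels for HBOT against CTX, CTX against NC and HBOT against NC, with the median of all tested genes as a dashed line and genes with an unadjusted p under 0.05 in red. Timp1 lies farthest to the left among the red genes for CTX against NC (-1.65), and Adamts4 has the widest error bar for HBOT against CTX (2.08, SE 1.05).

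The genes that act on or with these proteases were looked at in lists, and 0 genes of any list passed the adjusted threshold in any comparison. List counts were taken on unscaled values only. The shares of all genes set beside them moved with scaling, as given above. Of 20 activators and brakes, 12 were tested. In HBOT 8 were higher and 4 lower than in CTX, against 38.4% and 61.6% of all genes. At an unadjusted p under 0.05, 0 were lower, against 3.67% of all, and 1 was higher, against 2.41%. That was Plat, tissue plasminogen activator, at 28.6, 86.0 and 27.5 FPKM in HBOT, at 15.9, 18.7 and 11.9 FPKM in CTX and at 22.2, 28.9 and 20.4 FPKM in NC. All HBOT libraries lay above all CTX libraries, and the difference was 1.36 (SE 0.40, unadjusted p = 0.00803, adjusted p = 0.710 by limma), or 0.84 without HBOT replicate 2. Between CTX and NC 4 were higher and 8 lower, against 59.5% and 40.5% of all genes. At an unadjusted p under 0.05, 0 were higher and 0 lower, against 5.24% and 2.74% of all. Between HBOT and NC 9 were higher and 3 lower, against 47.6% and 52.4% of all genes. At an unadjusted p under 0.05, 0 were higher and 1 lower, against 6.22% and 5.65% of all. The lower gene was A2m, a broad protease trap (-0.92, SE 0.32, unadjusted p = 0.0202 by limma, and -0.61 without NC replicate 1). A2m was at 0.223, 0.413 and 0.477 FPKM in HBOT, at 0.175, 1.04 and 1.30 FPKM in CTX and at 2.98, 0.947 and 1.23 FPKM in NC. It was tested only through its level in CTX and NC, so its place follows in part from the filter.

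Of 21 collagens and matrix glycoproteins, 20 were tested. Between HBOT and CTX 17 were higher and 3 lower, where 38.4% and 61.6% of all genes were, with a list median of 0.27. At an unadjusted p under 0.05, 5 were higher and 0 lower, against 2.41% and 3.67% of all. Between CTX and NC 3 were higher and 17 lower, where 59.5% and 40.5% of all genes were, with a list median of -0.34. At an unadjusted p under 0.05, 0 were higher and 7 lower, against 5.24% and 2.74% of all. Between HBOT and NC 10 were higher and 10 lower, where 47.6% and 52.4% of all genes were, with a list median of -0.02. Of these, 1 higher and 2 lower had an unadjusted p under 0.05, against 6.22% and 5.65% of all. Fn1, fibronectin, was at 41.4, 29.6 and 26.0 FPKM in HBOT, at 17.1, 19.7 and 21.6 FPKM in CTX and at 26.4, 28.0 and 28.9 FPKM in NC. As for Timp1 and Mmp14, all 3 CTX libraries lay below the 6 others, and the Fn1 difference was 0.68 between HBOT and CTX (SE 0.17, unadjusted p = 0.00303, adjusted p = 0.710 by limma). Spp1, osteopontin, a substrate of several MMPs, was at 8.47, 28.1 and 27.1 FPKM in HBOT, at 5.08, 10.7 and 3.49 FPKM in CTX and at 60.9, 27.9 and 123 FPKM in NC. CTX lay below NC with no overlap, by -3.15 (SE 0.62, unadjusted p = 0.000736, adjusted p = 0.258 by limma), and HBOT replicate 1 lay inside the CTX range.

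Of 18 proteoglycans and partners 12 were tested. In HBOT 9 were higher and 3 lower than in CTX, against 38.4% and 61.6% of all genes. At an unadjusted p under 0.05, 0 were higher and 0 lower, against 2.41% and 3.67% of all. Between CTX and NC 4 were higher and 8 lower, against 59.5% and 40.5% of all genes. At an unadjusted p under 0.05, 0 were higher and 3 lower, against 5.24% and 2.74% of all. The 3 were Bgn (-0.77), Lum (-0.61) and Hspg2 (-0.38), that is, biglycan, lumican and perlecan. Hspg2 was at -0.23 without CTX replicate 1. Against NC, 6 were higher and 6 lower in HBOT, where 47.6% and 52.4% of all genes were. With an unadjusted p under 0.05, 1 was higher and 1 lower, against 6.22% and 5.65% of all. Bgn was lower (-0.65, SE 0.23, unadjusted p = 0.0205 by limma). Comp was higher (2.16, SE 0.89, unadjusted p = 0.0390 by limma). It was at 5.70, 8.78 and 5.32 FPKM in HBOT and 1.24, 0.459 and 0.410 FPKM in NC, so it was tested in part through HBOT. Of 23 other metalloproteases and cathepsins 16 were tested. In HBOT 11 were higher and 5 lower than in CTX, against 38.4% and 61.6% of all genes. At an unadjusted p under 0.05, 0 were higher and 0 lower, against 2.41% and 3.67% of all. Between CTX and NC, 1 of the 16 was higher and 1 lower at an unadjusted p under 0.05, against 5.24% and 2.74% of all. Astl (ovastacin, an oocyte protease) was higher (0.58, SE 0.18, unadjusted p = 0.0121 by limma) and Adam9 lower (-0.42, SE 0.16, unadjusted p = 0.0280 by limma). In HBOT 2 were higher than in NC and 0 lower by that p, against 6.22% and 5.65% of all. They were Astl (0.86, SE 0.18, unadjusted p = 0.00131 by limma) and Adam8 (0.46, SE 0.14, unadjusted p = 0.0110 by limma). The oocyte marker sum was also higher in every CTX and HBOT library than in NC, and its part in the Astl values was not tested. Of 7 ADAMTS-like genes, which carry the repeats without the protease, 5 were tested. In HBOT 1 was higher and 4 lower than in CTX, against 38.4% and 61.6% of all genes. Thsd4 was lower by the unadjusted p (-0.35, SE 0.14, unadjusted p = 0.0385 by limma), as were 3.67% of all genes. Adamtsl2 was higher in HBOT than in NC (1.24, SE 0.32, unadjusted p = 0.00379, adjusted p = 0.274 by limma). It was also higher in CTX than in NC (0.74, SE 0.32, unadjusted p = 0.0454 by limma), by 0.45 to 1.15 with 1 CTX library left out. By that p, 1 of the 5 was higher and 0 lower in CTX than in NC, against 5.24% and 2.74% of all genes. Adamtsl4 (-1.08) and Papln (-0.45) were lower in HBOT than in NC by the unadjusted p (0.0126 and 0.0243 by limma).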

How the data were processed

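Ovary RNA of mice was sequenced in 9 libraries (3 HBOT, 3 CTX, 3 NC). The authors deposited 1 table of FPKM, with a column per library. Columns were matched to samples by the sample names, and 0 stayed unmatched. The build was GRCm39 (mm39) and the read trimmer fastp 0.23.4, per the submitters' processing notes. No aligner, counter, annotation release or use of strand is given in the sources used here. FPKM keeps no read counts, so depth is unknown and no count model was used.

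Values were taken as log2(FPKM + 1), unscaled. The filter asked for 1 FPKM or more in 3 or more of the 9 libraries and kept 13338 of 22544 entries. Group means were fitted with limma 3.58.1 in R 4.3.3 (eBayes with trend), on 9 libraries with 6 residual degrees of freedom. The Benjamini-Hochberg adjustment ran over the 13338 entries of each comparison, with calls at an adjusted p under 0.05. The procedure was tested on simulated data. Motifs, overlaps and sums were computed with Python 3.11.15 and pandas 2.3.3, and figures with matplotlib 3.10.9. Gene overlaps and neighbours come from GENCODE M21 and promoters from RefSeq, both on GRCm38, and were matched by identifier or symbol.

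Values by library are given for the Timp genes, for tested genes with a mean of at least 10 FPKM or an unadjusted p under 0.05 in a comparison, and for genes whose highest library has at least 2 FPKM and at least 4 times the next. From the lists of other genes, up to 3 with the smallest p per list and comparison are named, and Pgr and Vcan. Mmp9, Mmp8 and Adamts3 were added after their values were seen. The genes, lists and tests were chosen with earlier results of these data known. Alternatives were another pseudocount (0.1), no filter or a filter of 5 FPKM, TPM, median-of-ratios and quantile scaling, a fit of the 2 groups compared, replicate number as a block, library weights and each library left out. Counts of groups that do not overlap, without HBOT replicate 2 or CTX replicate 1, and the differences of the listed genes with a library left out, were added after seeing the data.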

Additional observations from a re-analysis of the deposited data

How the results depend on the processing

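At an adjusted p under 0.05, 0 genes of the 3 families were called in any comparison under the 19 alternatives. Of the 25, 14 were tested under the filter of 5 FPKM. Over all genes the counts called, 0 in each comparison of the main fit, changed under some alternatives. For HBOT against CTX they were 1 with no filter, 5 with library weights, 2 with HBOT replicate 2 and CTX replicate 1 both left out, and 0 to 1 with a library left out. For CTX against NC they were 31 in a fit of those 2 groups, 123 with library weights, 16 without both libraries, and 0 to 9 with a library left out. For HBOT against NC they were 1 with no filter, 181 with library weights, and 0 to 3 with a library left out. The other settings gave 0.

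Of 301 values for the 16 genes given by library, 21 turned in sign for HBOT against CTX, 8 for CTX against NC and 32 for HBOT against NC. The cause was not tested. For HBOT against CTX, Adamts2 was at 0.055 with median-of-ratios and 0.025 with quantile scaling. With library weights Adamts10, Adamts2, Mmp11 and Timp3 were at 0.0337, 0.11, 0.47 and -0.12, and without both libraries at 0.12, 0.18, 0.49 and -0.26. With a library left out the ranges were -0.14 to 0.16 (Adamts2), -0.089 to 0.35 (Mmp12), -0.10 to 0.34 (Timp3), -0.57 to 0.57 (Mmp11), -0.37 to 0.27 (Adamts19, and 0.30 without both libraries) and -0.39 to 0.043 (Adamts10). For CTX against NC, Mmp23 was at 0.00220 with library weights, Adamts19 and Mmp23 at -0.070 and 0.019 without both libraries, and with a library left out at -0.20 to 0.44 (Adamts19) and -0.0856 to 0.019 (Mmp23). For HBOT against NC, Adamts1 and Mmp14 were at 0.011 and 0.0082 with median-of-ratios scaling, and Mmp14 at 0.0033 with quantile scaling. With library weights Adamts10, Adamts9, Mmp11, Mmp14, Mmp2 and Timp2 were at 0.22, -0.48, 0.26, 0.22, 0.068 and 0.10. Without both libraries Adamts10, Adamts9, Mmp11, Mmp14 and Timp2 were at 0.20, -0.42, 0.17, 0.16 and 0.033. With a library left out the ranges were -0.74 to 0.48 (Adamts1), -0.11 to 0.23 (Adamts19), -0.41 to 0.035 (Mmp19), -0.24 to 0.20 (Adamts10), -0.42 to 1.16 (Adamts9), -0.97 to 0.17 (Mmp11), -0.15 to 0.16 (Mmp14), -0.40 to 0.033 (Timp2), -0.32 to 0.12 (Timp3) and -0.28 to 0.24 (Mmp2).

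Timp1 kept its sign throughout, at 1.70 to 2.34 for HBOT against CTX (adjusted p 0.109 to 0.860 by limma) and -1.97 to -1.32 for CTX against NC (adjusted p 0.0673 to 0.625 by limma). Timp4 for HBOT against NC had adjusted p of 0.0501 to 0.612. Of the 16 genes, Timp4, Mmp12 and Adamts4 gave no value under the filter of 5 FPKM. The replicate block called 0 genes in each comparison and left the unadjusted counts of the 25 genes at 3 higher, 5 lower and 2 lower. Same-numbered libraries correlated at -0.287 to 0.156. Of the 9 libraries, 4 were closest to their own number in both other groups. Such a count cannot settle whether the numbers pair the libraries, and the labels do not say. With 3 libraries a group and unknown depth, the precision of genes near 1 FPKM is known only from their spread.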
